A study of Danio rerio with 4 samples.

Results

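Cytosolic ribosomal protein genes were examined in adult zebrafish (Danio rerio) ventricular cardiomyocytes. The genes were taken by symbol from the deposited table: every row whose name starts with rpl or rps followed by a number, rplp or rpsa, leaving out the rps6k kinases. This gave 83 of 18105 rows, 47 named for the large subunit (rpl) and 36 for the small subunit (rps). The symbol rpl37 occurs at 2 loci, so the 83 rows carry 82 distinct symbols. The name rule also takes in rpl7l1, a relative of rpl7, and rps19bp1, which encodes a protein that binds Rps19 and is not itself a subunit. Of the 83 rows, 77 carry the ribosome term of the KEGG annotation in the table, and 82 are listed as protein coding, the other being rps20. The subunit genes rpl26, rpl27a, rpl37a and rpl41 were not analysed here.

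The 2 groups of sorted cells, each with 2 libraries, were compared by RNA-seq. The first holds tp1:EGFP+/myl7:DsRed2-NLS+ cells (called tp1 from here on; 2000 sorted cells per the series' design text), in which a Notch-responsive tp1 element drives EGFP and the cardiomyocyte promoter of myl7 drives a nuclear red reporter. The second holds myl7:EGFP+ cells (called myl7:EGFP+ from here on; 7000 sorted cells), in which the same promoter drives EGFP, so that it marks cardiomyocytes at large and can include cells with Notch reporter activity. No injury, drug or mutation is named for either group. The labels do not say whether replicates came from separate fish or pools, so p-values measure the spread between these libraries only, which may be technical.

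The cytosolic ribosome translates all nuclear-encoded mRNAs. Its small subunit decodes the mRNA, and its large subunit forms peptide bonds and carries the acidic P stalk, which recruits elongation factors. Subunits are assembled in the nucleolus from ribosomal RNA and ribosomal proteins that are made in near-equal amounts, and the mRNAs of these proteins share a terminal oligopyrimidine (TOP) tract through which the kinase mTOR controls their translation. Growing heart muscle depends on new ribosomes, and mutations of single subunit genes cause Diamond-Blackfan anaemia in humans.

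The libraries differed by replicate number in ways the groups do not explain. Values summed to 1660511 and 2041552 in tp1 replicates 1 and 2, and to 1552636 and 2130733 in myl7:EGFP+ replicates 1 and 2. In the replicate 2 columns all values up to 160 were rounded multiples of 2.98 (tp1) and 3.109 (myl7:EGFP+), the value of 1 read, which puts their depth at about 685085 reads (tp1) and 685344 reads (myl7:EGFP+). In the replicate 1 columns every whole number from 1 to 30 occurs, so 1 read is worth about 1 or less there. Their sums of values then put their depth well above that of the replicate 2 libraries, though the exact number of reads is unknown. Values above 0 were found for 12558 and 11516 genes in the tp1 libraries and for 14281 and 12417 in the myl7:EGFP+ libraries. Of all 18105 rows, 4864 were at 0 in both tp1 libraries, against 3300 in both myl7:EGFP+ libraries. The part of detection in values near 0 was not tested. Of 20 cardiomyocyte marker symbols, 19 were in the table and all 19 passed the filter on low values, with a summed value of 48683 and 88275 in the tp1 libraries and 47848 and 89497 in the myl7:EGFP+ libraries. Of these 19, 1 was called higher in tp1, the transcription factor gene hand2 (919 and 1314 in tp1, 459 and 479 in myl7:EGFP+). The troponin C gene tnnc1b (7 and 15 in tp1, 82 and 196 in myl7:EGFP+) and the transcription factor gene tbx5a (58 and 63 in tp1, 244 and 134 in myl7:EGFP+) were called lower. Among all tested genes, 16.1% were called higher and 18.0% lower. The SE of the log2 difference between groups had a median of 1.17 over these 19 markers and 0.45 over all tested genes. So few calls therefore do not show that the groups held cardiomyocytes in like purity.

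The comparison asked whether cells with Notch reporter activity differ from cardiomyocytes at large in the mRNA of their ribosomal proteins. Ribosomal protein genes were detected in all 4 libraries, with 0 members at a value of 0 in any of them. The median member had 302 and 1052 normalized reads in tp1 replicates 1 and 2, against 240 and 1048 in myl7:EGFP+ replicates 1 and 2. Members ranged from 37 to 910 and from 48 to 3532 in the tp1 libraries, and from 28 to 674 and from 22 to 3414 in the myl7:EGFP+ libraries. The 2 replicate 2 libraries were high, the 2 replicate 1 libraries were low, and the groups overlapped.

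Together the 83 genes held 1.67% and 4.42% of all values in tp1 replicates 1 and 2, against 1.42% and 4.35% in myl7:EGFP+ replicates 1 and 2. The group means were 3.04% ± 1.94 in tp1 and 2.89% ± 2.07 in myl7:EGFP+ (SD, n = 2 each), so the groups differed by far less than their replicates. The large subunit genes held 0.970% and 2.59% in tp1 and 0.833% and 2.55% in myl7:EGFP+. The small subunit genes held 0.698% and 1.83% in tp1 and 0.589% and 1.80% in myl7:EGFP+. Both subunits thus showed the same order of libraries. In sorted bulk samples, fewer cells of a type and less RNA per cell cannot be told apart.

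**Figure D1:**
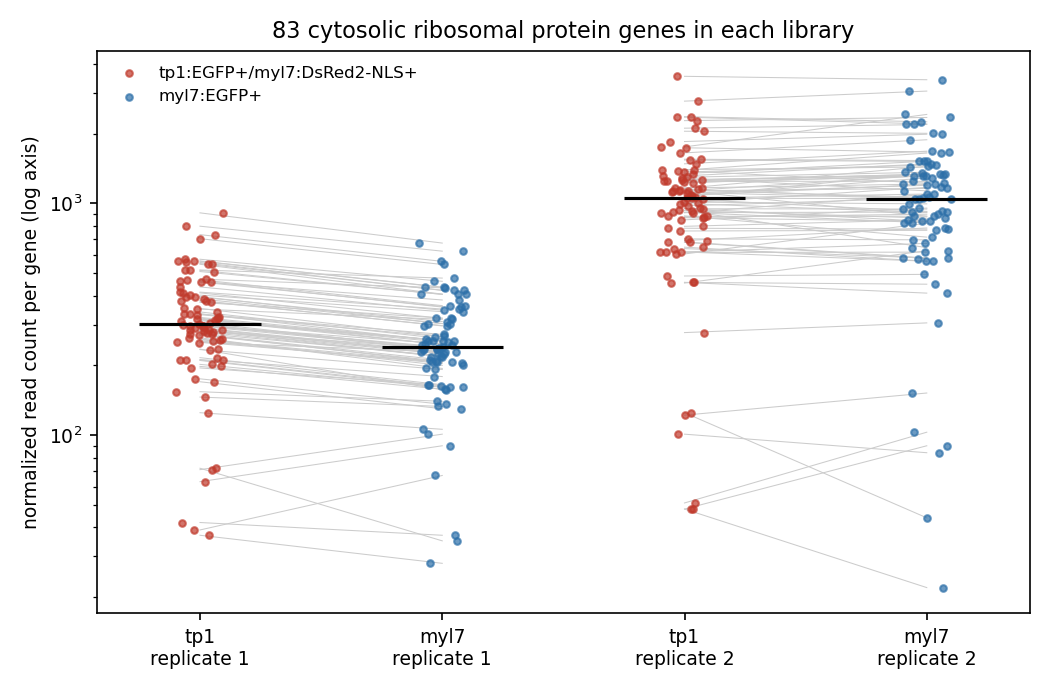
Normalized read count of each of the 83 genes (log axis) in each library, tp1 in red and myl7:EGFP+ in blue, with grey lines joining a gene within a replicate number and black bars at the medians. Medians are 302 and 240 in the replicate 1 libraries and 1052 and 1048 in the replicate 2 libraries.

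All 83 members passed the filter on low values. By limma with Benjamini-Hochberg adjustment over all tested genes, 0 of the 83 were called, whereas 34.1% of the 9921 tested genes were. At an unadjusted p under 0.05 the fit picked 1 member, rpl7l1, against 46.1% of tested genes, and a robust limma fit also called 0. With the replicate number as a block, limma called 4 members, against 57.7% of tested genes. They were rpl7l1, rps15a, rps19bp1 and the chromosome 2 copy of rpl37. The labels do not state such a pairing. The log2 difference (tp1 minus myl7:EGFP+) had a median of 0.15 over members and 0.01 over all tested genes. The middle members, from the first to the third quartile, lay between 0.08 and 0.22, and over all tested genes these quartiles were -1.04 and 0.91.

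The absence of calls in the fit without a block does not show that the groups were alike. The SE of the log2 difference had a median of 0.89 over members and 0.45 over all tested genes, so a moderate difference in a typical member could hardly have passed. For rps6, the target of S6 kinase, the values were 514 and 1067 in tp1 and 405 and 1352 in myl7:EGFP+. The log2 difference was 0.00092 with a 95% interval of -1.84 to 1.85. The median over members also depended on the balance of replicate numbers: it was -0.87 without myl7:EGFP+ replicate 1, 1.20 without myl7:EGFP+ replicate 2, 1.03 without tp1 replicate 1 and -0.69 without tp1 replicate 2.

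Replicate 2 was far above replicate 1 for nearly all members in both groups. The log2 difference, replicate 2 minus replicate 1, had a median of 1.71 in tp1 and 2.01 in myl7:EGFP+ over members, against -0.11 and -0.14 over all tested genes. It was at least 1 in both groups for 77 of the 83 members, whereas 3.93% of tested genes met this rule. A wide gap was not particular to the members. Its median in tp1 and myl7:EGFP+ was 1.16 and 1.51 for the 19 cardiomyocyte markers and 1.39 and 1.89 for 87 nuclear oxidative phosphorylation genes. For 74 mitochondrial ribosomal protein genes it was only 0.28 and 0.34. For rpl19, a large subunit protein gene, the values were 458 and 2274 in tp1 replicates 1 and 2 and 359 and 2347 in myl7:EGFP+ replicates 1 and 2, the widest gap of any member in both groups. The ubiquitin fusion gene rps27a had 381 and 1538 in tp1 and 296 and 1517 in myl7:EGFP+. For these genes both replicate 2 values exceeded both replicate 1 values.

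Over the members, the gap between replicate numbers in tp1 went with that in myl7:EGFP+ (Pearson's r = 0.910 over 83 genes, which are not independent replicates). Over all 9921 tested genes r was 0.442. The points share the same 4 libraries, and the value of 1 read and the sums of values differed by replicate number too. The part of depth in the gap was not tested. The gap was also above 0 in other abundant genes: 820 other tested genes with a mean of at least 500 had medians of 0.31 in tp1 and 0.57 in myl7:EGFP+. Their mean takes in the replicate 2 values, so part of this gap can come from the cut itself.

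**Figure D2:**
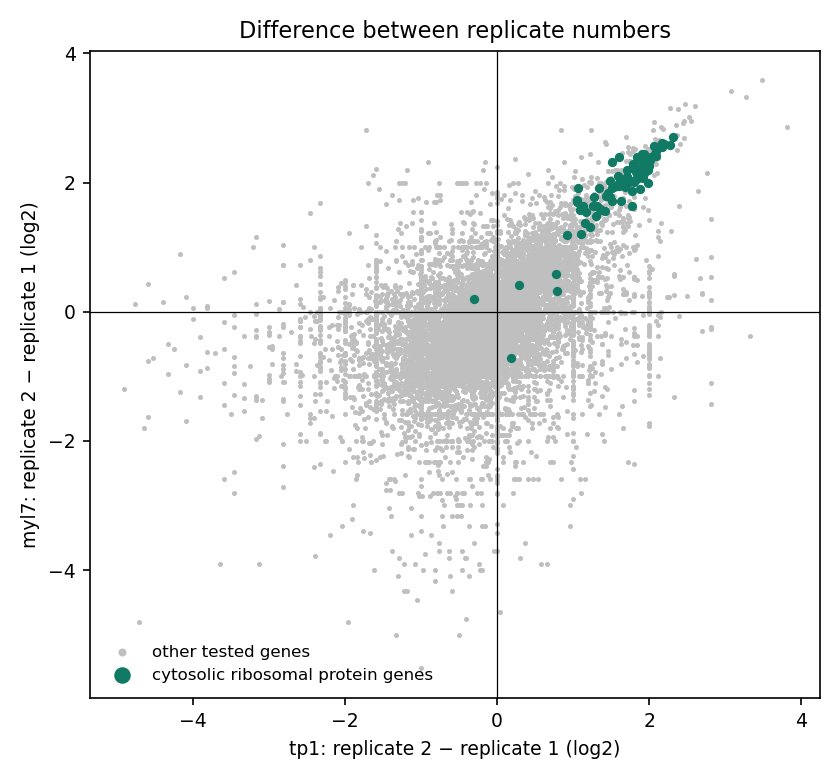
Log2 difference of replicate 2 minus replicate 1 in tp1 (horizontal axis) and in myl7:EGFP+ (vertical axis) for the 83 ribosomal protein genes in green and the other tested genes in grey. Of the 83 genes, 77 lie at 1 or more on both axes.

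Within replicate 1, ribosomal protein genes were higher in tp1 than in myl7:EGFP+ almost without exception. The difference was above 0 for 80 of 83 members, against 52.0% of all tested genes, and its median was 0.34, a ratio of 1.27, against 0.07 over all tested genes. The 77 members with a mean of at least 200 lay close together, from 0.12 to 0.58 with an SD over genes of 0.079. All 77 were above 0. Over all 83 members the SD was 0.21. For rpl3, which lies at the peptidyl transferase centre, the replicate 1 values were 910 in tp1 and 674 in myl7:EGFP+. For rpsa, a small subunit protein also known as the laminin receptor, they were 704 in tp1 and 545 in myl7:EGFP+. The other 820 tested genes with a mean of at least 500 had a median of 0.26 in replicate 1 and an SD over genes of 0.81. Of these, 590 were above 0. Among 87 tested nuclear genes of oxidative phosphorylation 78 were above 0, so the shift was not particular to the members. The SD over these 87 genes, with no cut on the mean, was 0.27.

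Within replicate 2 the shift was not seen. Of the 83 members, 37 were higher and 46 lower in tp1, with a median difference of -0.02, and 48.5% of all tested genes were higher. The other 820 tested genes with a mean of at least 500 had a median of -0.13 in replicate 2, against 0.26 in replicate 1. Of these, 334 were higher and 485 lower in replicate 2, so the fall between replicate numbers was not particular to the members. For rpl3 the replicate 2 values were 3532 in tp1 and 3414 in myl7:EGFP+, and for rpsa they were 2354 in tp1 and 2201 in myl7:EGFP+. Of the large subunit genes rpl4 and rpl7a, rpl4 had 797 and 2760 in tp1 replicates 1 and 2 and 622 and 3050 in myl7:EGFP+ replicates 1 and 2. The values of rpl7a were 556 and 2366 in tp1 and 421 and 2248 in myl7:EGFP+. The sign of the replicate 2 median turned with the scaling. It was 0.04 with a common total and 0.05 with quantile scaling, with 50 and 57 members higher, and -0.06 with size factors from the other genes, with 27 higher. The replicate 1 median stayed positive under these 3 scalings, between 0.25 and 0.32, with 78 to 80 members higher. In replicate 2 the 77 members with a mean of at least 200 had an SD over genes of 0.178, and the SE that read counting alone gives this difference was 0.11 for the median member. That figure covers counting error only, since reads without molecular identifiers are not independent molecules.

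Across both replicate numbers, 37 members were higher in tp1 in each, 3 were lower in each, and 43 were higher in replicate 1 and lower in replicate 2. Over all tested genes these shares were 42.9%, 41.9% and 8.76%. Of 87 tested nuclear genes of oxidative phosphorylation, 78 were above 0 in replicate 1 and 70 below 0 in replicate 2. Of the 820 other tested genes with a mean of at least 500, 590 were above 0 in replicate 1 and 485 below 0 in replicate 2. A turn of sign was thus not particular to the members. Differences in both replicate numbers stayed within 0.5 of 0 for 76 members, whereas 19.6% of tested genes met this rule. That share is over genes of all levels, and none was counted for genes of like level. The other 820 tested genes with a mean of at least 500 had quartiles of -0.06 and 0.42 in replicate 1. In replicate 2 their quartiles were -0.54 and 0.31. For the 87 oxidative phosphorylation genes the quartiles were 0.18 and 0.36 in replicate 1 and -0.34 and -0.05 in replicate 2. Small differences were thus not particular to the members. No test is possible for 1 library against 1.

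**Figure D3:**
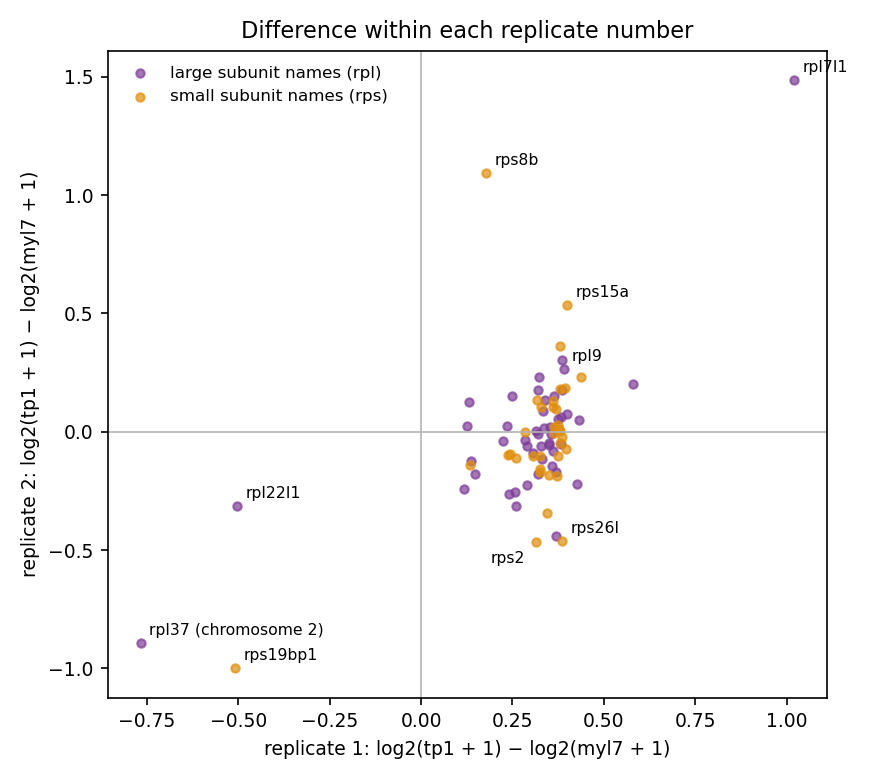
Log2 difference of tp1 minus myl7:EGFP+ within replicate 1 (horizontal axis) and within replicate 2 (vertical axis) for each ribosomal protein gene, large subunit names in purple and small subunit names in orange. Most genes form a column near 0.34 on the horizontal axis and around 0 on the vertical axis, while rpl7l1, rps8b, rpl22l1, rps19bp1 and the chromosome 2 copy of rpl37 lie apart.

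Values lay close together between the subunits. In the large subunit the median difference was 0.33 within replicate 1 and -0.04 within replicate 2, and in the small subunit it was 0.36 and -0.01. The 4 P stalk genes, of which rplp0 encodes the base and rplp1 and rplp2 the arms, had medians of 0.37 and -0.03. The values of rplp0 were 733 and 2110 in tp1 replicates 1 and 2 and 562 and 2189 in myl7:EGFP+ replicates 1 and 2. The tp1 value was the higher one in replicate 1 and the lower one in replicate 2. Of 20 tested genes whose human counterparts are mutated in Diamond-Blackfan anaemia, 0 were called, and their medians were 0.35 and 0.0015. Among these, rps19 had 289 and 930 in tp1 and 225 and 864 in myl7:EGFP+. The gene rpl11, whose protein binds Mdm2 when ribosome assembly fails, had 315 and 760 in tp1 and 246 and 765 in myl7:EGFP+.

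The order of the members by value was shared among libraries. Pearson's r of the log2 values over the 83 genes was 0.973 between tp1 and myl7:EGFP+ in replicate 1 and 0.968 in replicate 2. It was 0.937 between the 2 tp1 libraries and 0.922 between the 2 myl7:EGFP+ libraries. Genes keep their transcript length and base composition in every library, so these values are descriptions. Values are per gene and not per length, so levels are not compared between genes. The shares of a partner gene given below are for comparison between libraries, not between the genes of a pair.

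A small part of the members stood apart. Groups that did not overlap were found for 4 of 83 members, 2 higher and 2 lower in tp1, whereas 34.1% of tested genes were higher and 34.8% lower in this way. These 4 genes were rpl7l1 and rps8b on the higher side and rps19bp1 and the chromosome 2 copy of rpl37 on the lower side, and all had a mean under 200. The 77 members with a mean of at least 200 had gaps between replicate numbers of at least 0.92 in tp1 and 1.19 in myl7:EGFP+. Their groups could hardly have separated, so their overlap does not show that the groups were alike. Only 6 members had so low a mean, the others being rpl9 and rpl22l1.

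The gene rpl7l1 (chromosome 20, 36675083 to 36679233, minus strand, GRCz11) had 72 and 125 in tp1 and 35 and 44 in myl7:EGFP+. Both tp1 values exceeded both myl7:EGFP+ values. Its log2 difference was 1.25 ± 0.40 (SE, n = 2 libraries each), the largest of the members. In the fit without a block its limma adjusted p of 0.070 missed the threshold. In replicate 2 these values rest on 42 reads in tp1 and 14 reads in myl7:EGFP+. Set against its relative rpl7, it reached 15.7% and 10.8% of the rpl7 value in tp1 replicates 1 and 2 and 9.14% and 3.05% in myl7:EGFP+ replicates 1 and 2. It was the only one of 10 pairs of a gene and a partner whose percentages did not overlap between groups. The gap between replicate numbers in the partner moves these percentages in both groups, so overlap in a pair does not show likeness.

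The gene rps19bp1 (chromosome 6, 264927 to 268818, plus strand) had 63 and 51 in tp1 and 90 and 103 in myl7:EGFP+, with lower values in both tp1 libraries. Its log2 difference was -0.75 ± 0.30 (SE; limma adjusted p = 0.114). It equalled 21.8% and 5.48% of the rps19 value in tp1 and 40.0% and 11.9% in myl7:EGFP+. This share was lower in tp1 within both replicate numbers (ratios of 0.54 and 0.46), yet the groups overlapped. The rpl37 copy on chromosome 2 (49860722 to 49871576, plus strand) had 39 and 48 in tp1 and 67 and 90 in myl7:EGFP+, again lower in both tp1 libraries. Its log2 difference was -0.83 ± 0.35 (SE; limma adjusted p = 0.129). The copy on chromosome 21 had 211 and 605 in tp1 and 163 and 821 in myl7:EGFP+, with overlapping groups. How the authors' counting split reads between near-identical copies is unknown, so values of such pairs are uncertain.

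The paralog rpl22l1 (chromosome 24, 26475182 to 26479841, minus strand), which in mouse can replace Rpl22 in the ribosome, had 71 and 122 in tp1 and 101 and 152 in myl7:EGFP+. The tp1 value was lower within each replicate number, but the groups overlapped. The log2 difference was -0.41 ± 0.39 (SE; limma adjusted p = 0.475), and -0.022 without tp1 replicate 1. As a share of rpl22 it was 24.5% and 10.6% in tp1 and 44.1% and 14.5% in myl7:EGFP+. The small subunit copy rps8b (chromosome 8, 18193116 to 18200003, minus strand) had 42 and 48 in tp1 and 37 and 22 in myl7:EGFP+ (limma adjusted p = 0.325), and its replicate 2 values rest on 16 and 7 reads. Its partner rps8a had 340 and 1284 in tp1 and 261 and 1132 in myl7:EGFP+.

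The low members also showed little of the gap between replicate numbers, with rpl9 as the exception. In 5 of the 6, replicate 2 exceeded replicate 1 by less than 1 on the log2 scale in both groups or lay below it. For rpl9, at 37 and 101 in tp1 and 28 and 84 in myl7:EGFP+, the gap was 1.42 and 1.55. Its differences within replicate 1 and within replicate 2 were 0.39 and 0.26. These 4 values lie within the range of the members with a mean of at least 200. The mean takes in the replicate 2 values, so a low mean and a small gap are partly linked by construction.

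**Figure D4:**
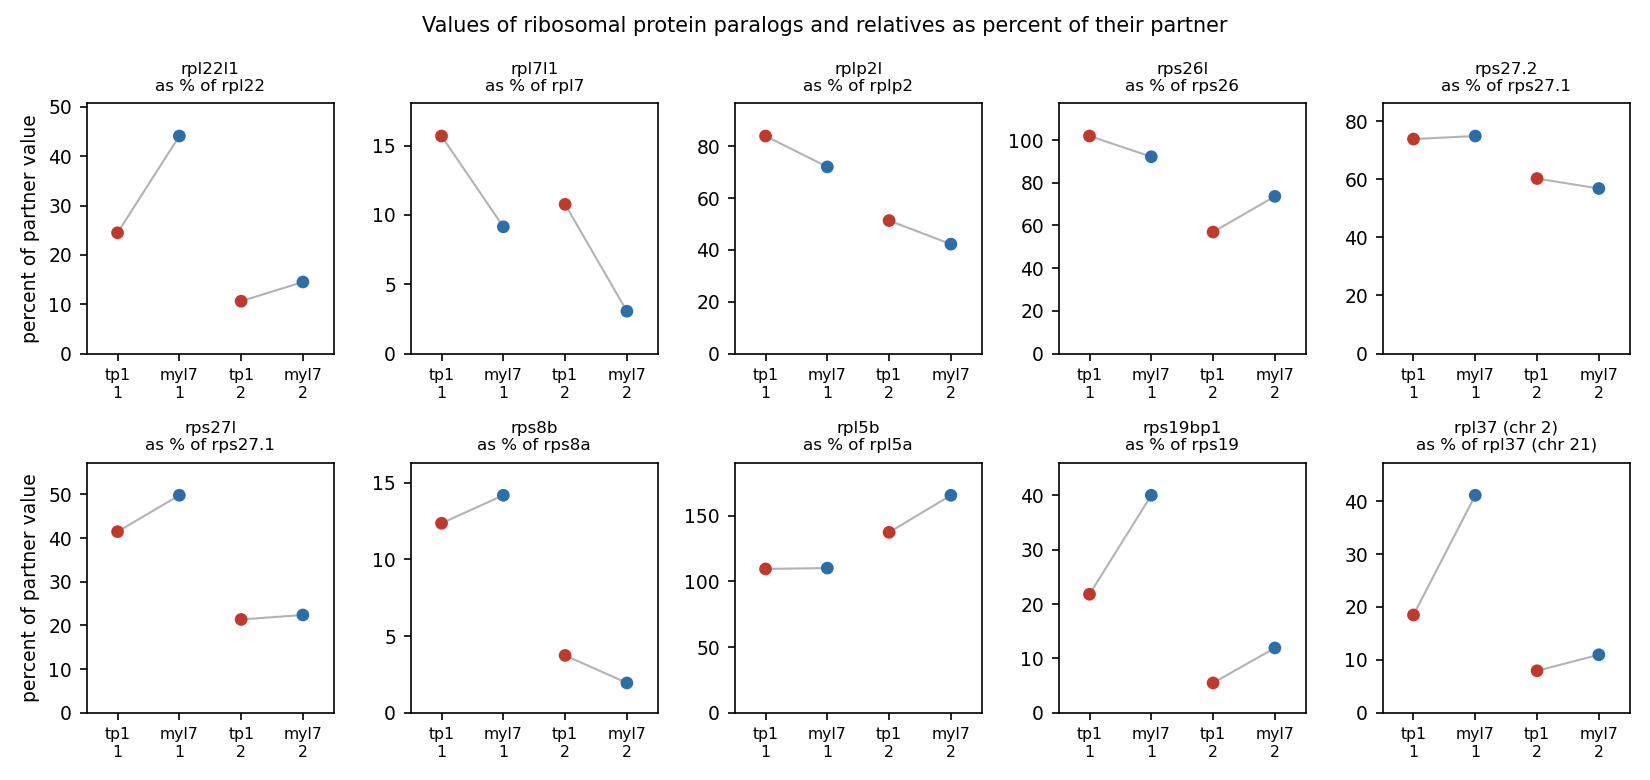
Value of each paralog or relative, and of rps19bp1, as a percent of its partner in each library. Groups are tp1 in red and myl7:EGFP+ in blue, with lines joining libraries of a replicate number. The protein of rps19bp1 binds Rps19 and is not a relative of it. For rpl7l1 both tp1 points (15.7% and 10.8%) lie above both myl7:EGFP+ points (9.14% and 3.05%), and in the other 9 pairs the groups overlap.

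Other copies kept their proportions more closely within a replicate number. The value of rps27.2 was 73.9% and 60.3% of rps27.1 in tp1 and 74.9% and 56.8% in myl7:EGFP+. For rpl5b and rpl5a, copies of the protein that binds 5S ribosomal RNA, the share was 110% and 137% in tp1 and 110% and 166% in myl7:EGFP+. The P stalk copy rplp2l equalled 83.9% and 51.3% of rplp2 in tp1 and 72.0% and 42.2% in myl7:EGFP+, higher in tp1 within both replicate numbers, and had a log2 difference of 0.39 ± 0.78 (SE). In replicate 2, rps26l turned the other way, at 56.9% of rps26 in tp1 and 73.6% in myl7:EGFP+, after 102% in tp1 and 92.2% in myl7:EGFP+ in replicate 1. For rps27l the share of rps27.1 was 41.5% and 21.4% in tp1 and 49.8% and 22.4% in myl7:EGFP+.

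Among abundant members, the highest difference belonged to rps15a, at 272 and 933 in tp1 and 206 and 644 in myl7:EGFP+. Its log2 difference was 0.47 ± 0.81 (SE), with 0.40 within replicate 1 and 0.53 within replicate 2. After it came the P stalk copy rplp2l, at 235 and 647 in tp1 and 157 and 563 in myl7:EGFP+, and then rps15, part of the small subunit head, at 306 and 1132 in tp1 and 235 and 880 in myl7:EGFP+ (0.38 and 0.36 within the replicate numbers). At the other end was rps2, with 574 and 1752 in tp1 and 461 and 2419 in myl7:EGFP+, higher in tp1 in replicate 1 and lower in replicate 2. The values of rpl5b were 516 and 1392 in tp1 and 476 and 1648 in myl7:EGFP+. None of these passed in the fit without a block. With the replicate number as a block, rps15a was called and the others were not.

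Subunits named outside the rule gave similar values. The gene rack1, which encodes a scaffold on the small subunit, had 674 and 1734 in tp1 and 503 and 1545 in myl7:EGFP+. The small subunit gene faua had 294 and 721 in tp1 and 225 and 681 in myl7:EGFP+, whereas its copy faub had 74 and 131 in tp1 and 84 and 152 in myl7:EGFP+. Both rack1 and faua were higher in tp1, and faub lower in tp1, within both replicate numbers, and 0 of these 3 genes were called.

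Lists of factors that build ribosomes or work with them did include called genes. Their median SE was smaller, at 0.39 for ribosome biogenesis, 0.31 for initiation factors and 0.35 for growth signalling, against 0.89 over members. A difference of a given size was thus easier to call in these lists. The counts therefore do not show that the members differed less between groups. Over all tested genes 16.1% were called higher and 18.0% lower in tp1. Of 81 tested ribosome biogenesis genes, 9 rose and 12 fell, with a median log2 difference of -0.08. The gene nmd3, an adaptor for export of the large subunit, fell to 1 and 0 in tp1, against 27 and 34 in myl7:EGFP+ (limma adjusted p = 0.0045). The small subunit processome genes wdr75 and utp6 rose. Their values were 190 and 176 (wdr75) and 126 and 161 (utp6) in tp1, against 45 and 40 (wdr75) and 14 and 22 (utp6) in myl7:EGFP+. Of 10 RNA polymerase I genes, 0 rose and 2 fell. These were polr1a, the largest subunit, at 13 and 9 in tp1 and 121 and 90 in myl7:EGFP+, and polr1e, at 2 and 6 in tp1 and 41 and 34 in myl7:EGFP+. In replicate 2, 1 read is worth 2.98 in tp1 and 3.109 in myl7:EGFP+. The lowest values here, such as those of nmd3 and polr1e, thus rest on few reads in both groups. The part of detection in these falls was not tested.

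Of 46 initiation factor genes, 4 rose and 2 fell, with a median of -0.05. The cap-binding protein gene eif4eb had 172 and 238 in tp1 and 88 and 81 in myl7:EGFP+ (limma adjusted p = 0.026). The genes eif2s1b, eif4e1c and eif4e2, named after their values were seen, also rose. The helicase cofactor gene eif4bb fell to 45 and 48 in tp1, against 153 and 152 in myl7:EGFP+, and eif2b3, part of the exchange factor for eIF2, to 32 and 39 in tp1, against 106 and 109 in myl7:EGFP+. Of 10 elongation factor genes 0 rose and 1 fell, eef1db, at 169 and 182 in tp1 and 303 and 413 in myl7:EGFP+. Of 21 other genes with TOP mRNAs, 0 rose and 1 fell (eif4bb, which is in both lists).

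In the list of growth signalling and TOP regulators, 2 of 31 rose and 8 fell (median -0.26). The gene tsc1b, which encodes part of the complex that inhibits mTOR, was at 0 in both tp1 libraries and had 64 and 47 in myl7:EGFP+. In all, 4864 of 18105 rows were at 0 in both tp1 libraries. The kinase genes rps6ka1 and akt3b fell to 62 and 69, and 1 and 0, in tp1, against 384 and 529, and 35 and 25, in myl7:EGFP+. The others that fell, named after their values were seen, were mlst8, rictorb, myca, akt2 and pdcd4a. In tp1 the values were 30 and 18 (mlst8), 45 and 27 (rictorb) and 7 and 0 (myca). In myl7:EGFP+ they were 103 and 106 (mlst8), 112 and 99 (rictorb) and 52 and 44 (myca). The replicate 2 values of akt3b and myca also rest on few reads. The 2 that rose, named after their values were seen, were mtor, at 350 and 274 in tp1 and 86 and 81 in myl7:EGFP+, and mycn, a transcription factor gene known to drive ribosome production, at 436 and 376 in tp1 and 152 and 78 in myl7:EGFP+. Limma adjusted p was 0.0065 for mtor and 0.020 for mycn.

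**Figure D5:**
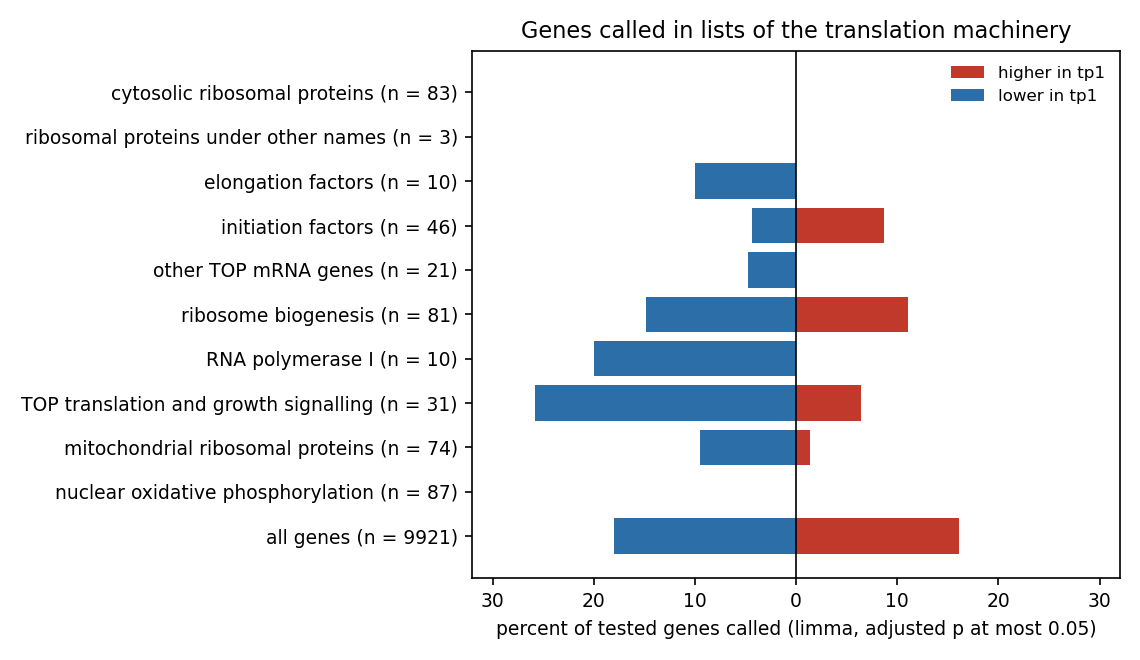
Percent of tested genes called higher (red, right) or lower (blue, left) in tp1 by limma at an adjusted p of at most 0.05, for the ribosomal protein genes, for related lists and for all tested genes, with the number tested beside each name. The ribosomal protein genes have no bar, and all genes reach 16.1% higher and 18.0% lower. The median SE differs between lists (0.89 for the ribosomal protein genes, 0.39 for ribosome biogenesis), so an absent bar does not show likeness.

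The nuclear genes of oxidative phosphorylation, which are abundant in heart muscle, also had no called gene among 87 tested, 0 in each direction, with medians of 0.30 within replicate 1 and -0.20 within replicate 2. Their gap between replicate numbers had a median of 1.39 in tp1 and 1.89 in myl7:EGFP+. Of 74 tested mitochondrial ribosomal protein genes, 1 rose (mrpl28, named after its values were seen) and 7 fell, and their median gap was 0.28 in tp1 and 0.34 in myl7:EGFP+. They held 0.603% and 0.611% of all values in tp1 replicates 1 and 2 and 0.682% and 0.671% in myl7:EGFP+ replicates 1 and 2. The gene mrpl24 fell to 47 and 45 in tp1, against 130 and 127 in myl7:EGFP+. The median SE of the log2 difference was 0.81 for the oxidative phosphorylation genes and 0.35 for the mitochondrial ribosomal protein genes. The counts of calls therefore do not show that the first list differed less between groups. Over all tested genes 16.1% were called higher and 18.0% lower. No test was made between these lists.

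Among markers of other cell types, mural and smooth muscle genes and erythroid genes were mostly called higher in tp1 and endothelial genes mostly lower. The summed erythroid values overlapped between groups, and the other lists were mixed. The shares over all tested genes were 16.1% called higher and 18.0% called lower. Of 9 tested mural and smooth muscle markers, 7 rose and 0 fell, with a summed value over all 11 in the table (sums here take every listed row) of 3045 and 4961 in tp1 and 1177 and 1491 in myl7:EGFP+. Of 12 endothelial markers 2 rose and 8 fell (sums of 158 and 129 in tp1 and 826 and 531 in myl7:EGFP+), and tie1 and erg were at 0 in both tp1 libraries. The endothelial marker cldn5b went the other way, at 29 and 27 in tp1 and 0 in both myl7:EGFP+ libraries. Of 9 erythroid markers 6 rose and 1 fell (668 and 909 in tp1, 884 and 883 in myl7:EGFP+), with the globin gene hbba2 at 0 in both myl7:EGFP+ libraries. In the epicardial and fibroblast list 3 of 7 rose and 1 fell (298 and 291 in tp1, 569 and 555 in myl7:EGFP+). Of 3 leukocyte markers 1 rose and 2 fell (22 and 45 in tp1, 57 and 77 in myl7:EGFP+), and of 2 thrombocyte markers 1 rose and 1 fell (135 and 167 in tp1, 31 and 12 in myl7:EGFP+). Their part in the differences of the members and of the translation factors was not tested.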

How the data were processed

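RNA-seq was measured in 4 libraries of sorted zebrafish cardiomyocytes, 2 per group, grouped by their titles. The deposited score of a gene is its read count as normalized by the authors between libraries and rounded, not a raw count. The submitters' processing notes name the builds danRer11 and GRCz11 and, as tools, DESeq2 1.26.0, featureCounts, STAR 2.6.1d, Subread 1.6.5 and Trimmomatic 0.39. What each did, and how strand, duplicates and reads shared by several genes were treated, is not given in the labels used here.

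Differences were tested with limma 3.58.1 (R 4.3.3, trend option) on log2(value + 1) over the 9921 genes whose mean reached 10, with Benjamini-Hochberg adjustment over all of them and a threshold of 0.05. This scale understates the change of low genes. No count model was fitted, because single reads cannot be recovered in the replicate 1 columns. The script was tested on simulated data. Their noise was independent between libraries and smaller than the spread seen here, with no shift shared by a replicate number. The simulation therefore does not cover the gap between replicate numbers. Tables and plots used Python 3.11.15, pandas 2.3.3, numpy 2.4.6 and matplotlib 3.10.9.

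The gene group, the lists and the tests were chosen with earlier results of these data known. Members named by rule were those with the 5 highest and 5 lowest differences, the 6 highest means, the lowest mean, and paralogs marked by an ending of their symbol with their partners. In other lists, up to 3 called genes with the smallest p were named. The genes rps6, rpl11, rps27a, rpl9, rps8a, rpl5a and faub were added after their values were seen. The labels do not say whether a replicate number marks a shared pool of hearts or day, so the fit had no replicate term. Alternatives were 2 other pseudocounts, 2 other filters, 3 other scalings, fits with no trend, a robust fit, a replicate block, and each library left out in turn.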

Additional observations from a re-analysis of the deposited data

How the results depend on the processing

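With 2 libraries per group, limits come from the gap between replicate numbers and from the depth of the replicate 2 libraries (685085 reads in tp1 and 685344 in myl7:EGFP+). The number of members called stayed at 0 in each direction under 9 of 10 settings that kept all libraries. With the replicate number as a block (replicate block), 2 members were called higher (rpl7l1 and rps15a, log2 1.25 and 0.47) and 2 lower (the chromosome 2 copy of rpl37 and rps19bp1, -0.83 and -0.75), against 5721 genes or 57.7% of those tested. The median SE of members was then 0.18. The labels do not state a pairing, so this is an alternative only; deviations of libraries with the same number correlated over genes (r = 0.442), a hint from the data from 2 pairs. The number of all genes called was 3382, 1343 with a mean of at least 50, and 401 to 627 without 1 library. The median log2 difference of members was then -0.87 to 1.20, with 0 members called, and by construction such a fit sets 2 replicate numbers against 1. The median gap between replicate numbers was 1.41 in tp1 and 1.56 in myl7:EGFP+ with a common total, and 1.44 and 1.63 with quantile scaling. With quantile scaling the log2 difference of rpl7 was 0.0019, a sign opposite to that of the fit reported; the cause was not tested.

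Without 1 library, the sign of the log2 difference changed for 20 of the 25 members named by rule (members added to the text afterwards were not refitted). The ranges were -1.20 to 1.505 for rpl19, -0.86 to 1.33 for rpl22, -0.93 to 1.41 for rpl3, -1.04 to 1.25 for rpl4, -0.96 to 0.83 for rpl5b, -0.98 to 0.93 for rpl7, -0.97 to 1.44 for rpl7a, -0.815 to 1.145 for rplp0, -1.17 to 1.44 for rplp2, -0.53 to 1.31 for rplp2l, -0.58 to 1.32 for rps15, -0.42 to 1.35 for rps15a, -0.74 to 1.20 for rps19, -1.27 to 1.12 for rps2, -1.04 to 1.20 for rps26, -0.996 to 0.92 for rps26l, -1.01 to 1.34 for rps27.1, -0.78 to 1.17 for rps27.2, -0.60 to 0.59 for rps27l and -0.77 to 1.24 for rpsa. The sign held, at changing size, at 0.86 to 1.65 for rpl7l1, 0.27 to 0.997 for rps8b, -0.90 to -0.60 for rps19bp1, -0.795 to -0.022 for rpl22l1 and -1.04 to -0.62 for the chromosome 2 copy of rpl37.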
